A study of Mus musculus with 12 samples.

Results

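Messenger RNA of 10 secreted factors of fibroblasts, the chemokines Ccl2, Ccl7, Cxcl1, Cxcl5, Cxcl12, Ccl5 and Cxcl10 and the cytokines Il6, Csf1 and Lif, was measured in 12 RNA-Seq libraries. The genes were chosen by name, and all 10 were found once each among the 54447 rows of the count table. The cells were NIH3T3, an established mouse embryo fibroblast line, which the labels call mouse embryonic fibroblasts. They had been infected with a lentiviral vector and selected with puromycin as stably infected populations, so that all groups shared the vector, the engineered Tet activator and the selection. The insert encoded either N-VEGF, the N-terminal part of the long form of VEGF-A with a His tag, or NLS-N-VEGF, the same part behind the nuclear localization sequence of Cas9. Each was under a promoter that doxycycline (dox) induces. The 4 groups of 3 libraries were NLS-N-VEGF cells without dox (NLS-N-VEGF), the same with dox for less than a day (NLS-N-VEGF dox), the cells with the N-VEGF insert without dox (N-VEGF), and these with dox (N-VEGF dox). No uninfected cells and no cells with an empty vector were among these libraries. Each group held libraries numbered 1 and 2 with the suffix _120519 and a further library numbered 2 with the suffix _290419. The meaning of the suffix is not given in the labels, and the labels do not say that libraries came from separate cultures, so p-values measure the spread between these libraries, which may be technical.

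Chemokines are small secreted proteins that attract leukocytes along a gradient through receptors with G proteins. The transcription factor NF-kB, released into the nucleus when its inhibitors are degraded, switches on many of them, and fibroblasts use it to report injury or infection to the immune system. Of the 10 genes, 7 were grouped as NF-kB-driven: Ccl2 and Ccl7, which attract monocytes through Ccr2, Cxcl1 and Cxcl5, which attract neutrophils through Cxcr2, Ccl5 and Cxcl10, which attract T cells and are also induced by interferon, and Il6, a cytokine that signals through the shared subunit gp130 (Il6st). The other 3 were grouped as homeostatic or growth factors. Cxcl12 holds progenitor cells in their niche through Cxcr4 and is taken up by Ackr3, Csf1 keeps macrophages alive through Csf1r, and Lif signals through Lifr and gp130.

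The set of RefSeq promoter sequences used here (GRCm38.p6) held 6 of the 10 genes, Cxcl1, Il6, Cxcl10, Cxcl12, Csf1 and Lif. Each was a window of 250 bases before to 50 bases after the annotated start. Ccl2, Ccl7, Cxcl5 and Ccl5, all grouped as NF-kB-driven, had no entry in this set and were not searched. A search of both strands for the NF-kB consensus found a match in 4 of the 6, against 4.51% of all 32851 windows. The AP-1 motif TGANTCA was present in Il6, Lif and Cxcl10, against 7.81% of all windows. The interferon-stimulated response element, as a pair of GAAA repeats with NN between them, was present in Cxcl10, against 3.44% of all windows. The Cxcl12 window held none of these. The 250 bases before the start are shown for 1 neutrophil chemokine, for Il6, and for a pair of homeostatic factors, Csf1 with a match and Cxcl12 without, read 5′ to 3′ on the strand of the gene with the NF-kB match in capitals.
Cxcl1, chr5:90890995-90891244, plus strand: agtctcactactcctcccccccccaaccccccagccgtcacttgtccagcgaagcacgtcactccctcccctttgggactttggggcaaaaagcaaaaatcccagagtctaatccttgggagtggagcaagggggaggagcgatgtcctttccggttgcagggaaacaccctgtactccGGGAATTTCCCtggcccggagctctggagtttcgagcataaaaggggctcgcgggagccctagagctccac
Il6, chr5:30012864-30013113, plus strand: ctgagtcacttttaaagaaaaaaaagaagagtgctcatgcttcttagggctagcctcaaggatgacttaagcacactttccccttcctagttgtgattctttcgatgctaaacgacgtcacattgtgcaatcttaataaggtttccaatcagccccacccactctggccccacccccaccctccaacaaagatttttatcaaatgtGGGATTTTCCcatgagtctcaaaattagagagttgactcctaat
Csf1, chr3:107760470-107760719, minus strand: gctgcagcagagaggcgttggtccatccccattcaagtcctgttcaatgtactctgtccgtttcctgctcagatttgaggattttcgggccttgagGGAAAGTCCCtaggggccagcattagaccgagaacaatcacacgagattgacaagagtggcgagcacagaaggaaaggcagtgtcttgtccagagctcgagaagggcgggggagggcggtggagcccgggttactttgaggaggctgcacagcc
Cxcl12, chr6:117168285-117168534, plus strand: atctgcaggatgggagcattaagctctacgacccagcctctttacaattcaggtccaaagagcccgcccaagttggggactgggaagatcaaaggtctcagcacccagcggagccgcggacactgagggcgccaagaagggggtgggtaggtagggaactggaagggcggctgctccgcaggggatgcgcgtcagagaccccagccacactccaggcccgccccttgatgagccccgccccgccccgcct
In Cxcl1 the capitals cover overlapping matches, GGGAATTTCC on one strand and GGAATTTCCC on the other, of which the first began 71 bases before the start. The match of Il6, GGGATTTTCC, began 44 bases before its start and that of Csf1, GGAAAGTCCC, 154 bases before its start. Cxcl10 held 2 separate matches, GGGAAATTCC at 159 and GGGACTTCCC at 103 bases before its start. A match describes the letters only and was not tested for binding.

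**Figure D1:**
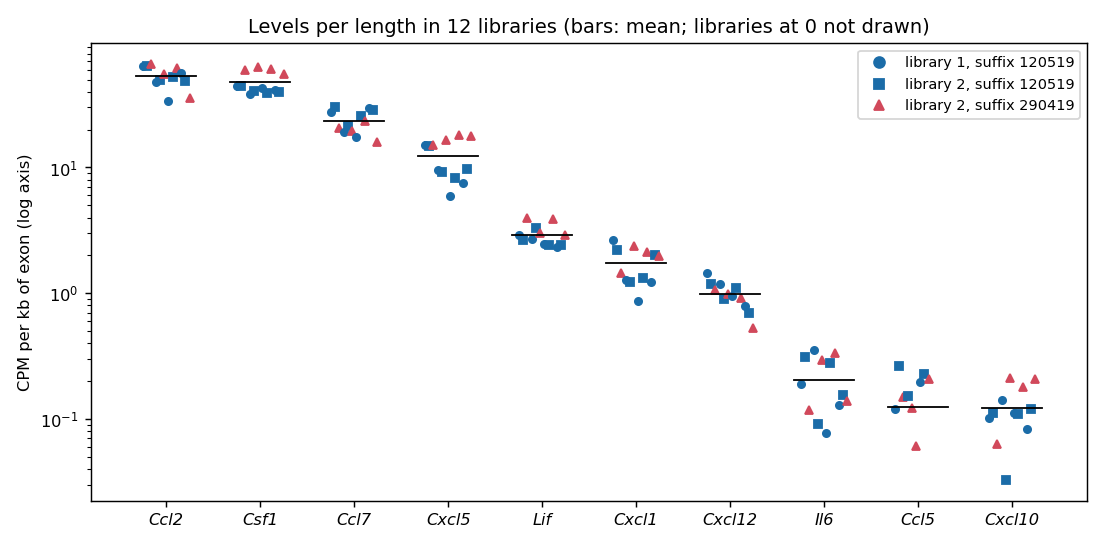
Level of each gene in the 12 libraries as CPM per kb of exon, on a log axis, with the mean as a bar and markers by library number and suffix. Ccl2 and Csf1 lie highest with means of 53.0 and 47.6, and Il6, Ccl5 and Cxcl10 lie at 0.206 or below.

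The 10 genes spanned a wide range of levels, and the NF-kB-driven group held both the highest and the lowest. Per kb of merged exons, in counts per 1000000 counts of a library (CPM, after TMM scaling of library sizes), the mean level over 12 libraries was 53.0 ± 10.6 for Ccl2 and 47.6 ± 9.51 for Csf1 (SD, n = 12). Ccl2 was above Csf1 in 9 of 12 libraries, their ranges overlapped, and the order of their means turned when the longest transcript was used as the length, with 55.0 for Ccl2 and 60.2 for Csf1. Ccl7 followed at 23.3 ± 5.05 CPM per kb and Cxcl5 at 12.3 ± 4.35, in that order in 11 of 12 libraries with overlapping ranges. Csf1 and Ccl7 did not overlap, and neither did Cxcl5 and the next gene, Lif.

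At the lower end, Lif had a mean level of 2.91 ± 0.555 CPM per kb, Cxcl1 1.72 ± 0.561 and Cxcl12 0.979 ± 0.245 (SD, n = 12). The ranges of these neighbours overlapped, although Lif was above Cxcl1 in 12 of 12 libraries and Cxcl1 above Cxcl12 in 11 of 12. Il6 was at 0.206 ± 0.101 CPM per kb, below Cxcl12 without overlap. Ccl5 was at 0.125 ± 0.0922 and Cxcl10 at 0.123 ± 0.0546. Il6 was above Ccl5 in 7 of 12 libraries and Ccl5 above Cxcl10 in 7 of 12, with overlapping ranges. Neither neighbouring pair thus differed beyond its spread, and Il6 and Cxcl10 were not compared directly.

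Total counts ranged from 13549331 to 18982127 per library, so that a floor of 3 counts stood at 0.158 to 0.221 CPM, and these floors cover counting error only. After the filter on low counts 13608 genes were tested, among them 8 of the 10 members. Ccl5 had 0 to 4 counts per library and Cxcl10 had 1 to 8, and neither was tested. The row of the construct insert checked the dox labels: it had 0.288 to 0.857 CPM in the libraries without dox and 2.57 to 17.9 CPM in those with dox. With dox it was at 2.57, 2.58 and 10.2 CPM in NLS-N-VEGF cells and 7.56, 8.08 and 17.9 CPM in N-VEGF cells. The order is libraries 1 and 2 of suffix _120519 and 2 of _290419, and NLS-N-VEGF dox was lower under each label. Comparisons between the populations with dox, and of their dox effects, thus also carry a difference in insert level. With dox the insert was highest in suffix _290419 in both populations. Comparisons between suffixes, and of dox effects between suffixes, therefore carry such a difference as well. The part of the insert level in any of these comparisons was not tested. Fibroblast markers were present (9 of 9 above a mean of 1 CPM, summed 11200 to 14200 CPM in the libraries of suffix _120519 and 11600 to 13100 in those of _290419). Of 8 macrophage and leukocyte markers, 3 were above 1 CPM (Cd14, Csf1r and Cd68), summed 33.1 to 41.2 and 31 to 34.8 CPM, with Tyrobp at 0 in all 12 libraries and Adgre1 and Itgam at a mean of 0.00524 and 0.0198 CPM. Endothelial markers (1 of 6 above 1 CPM, Cdh5) summed to 2.71 to 4.49 and 3.67 to 4.14 CPM, and epithelial markers (2 of 5, Cdh1 and Krt14, with Krt5 at 0) to 1.6 to 3.16 and 3.07 to 3.56 CPM. Fewer cells of a type and less RNA per cell cannot be told apart in these bulk libraries.

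**Figure D2:**
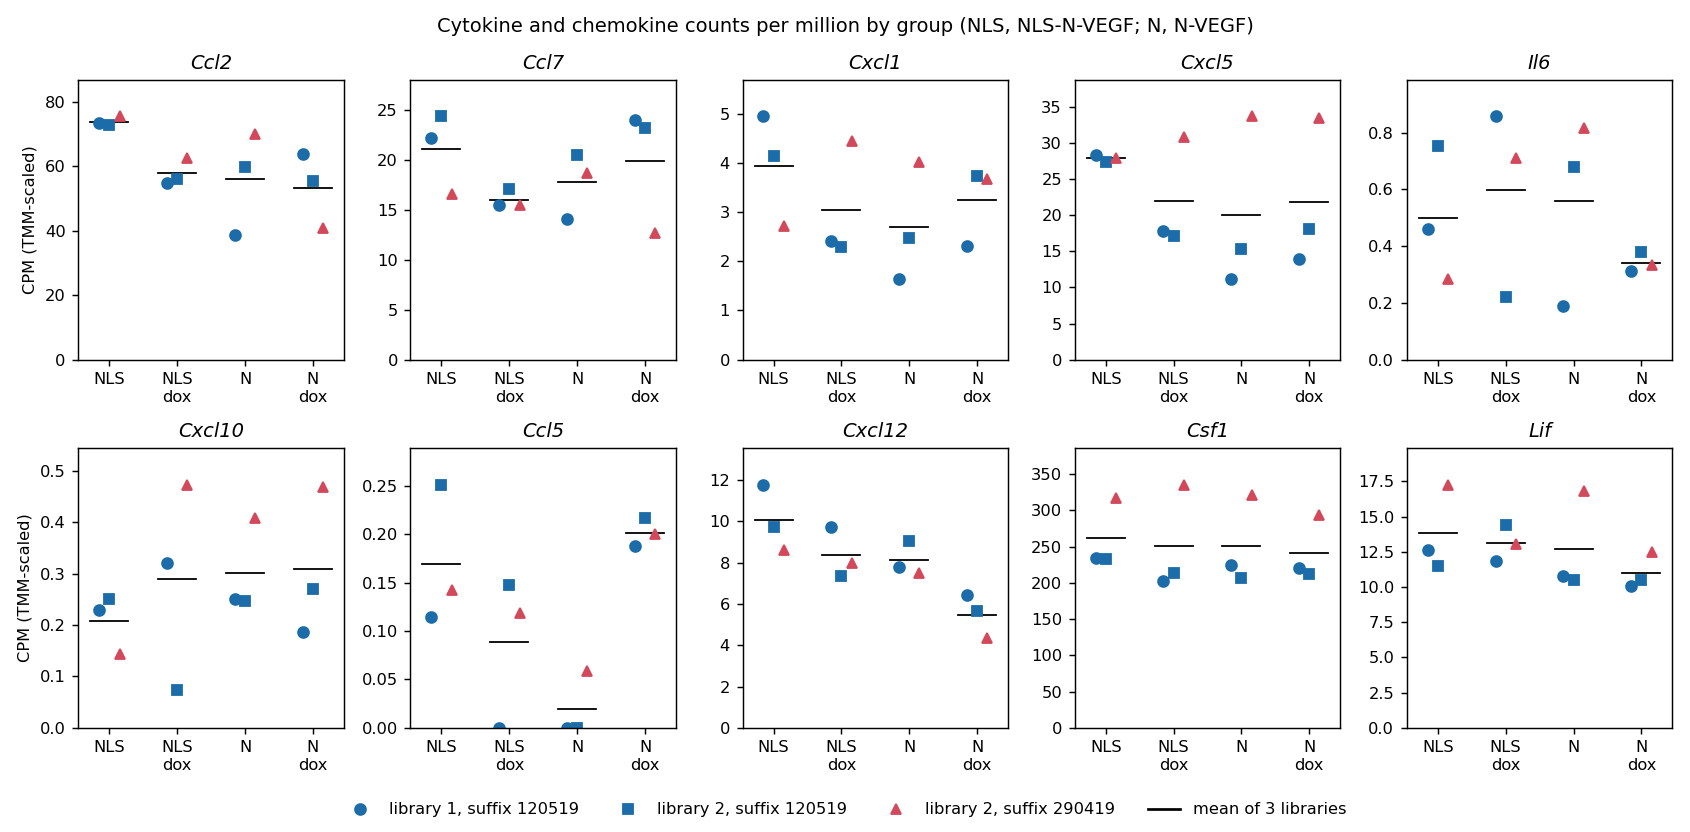
CPM (TMM-scaled, linear axes from 0) of the 10 genes in each library, by group, with blue circles and squares for libraries 1 and 2 of suffix _120519, red triangles for suffix _290419 and a bar for the mean of 3. All 4 triangles of Csf1, from 293 to 336 CPM, lie above its 8 blue points, which end at 235 CPM.

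The only differences among the members that edgeR called lay between the suffixes, and none with dox or insert. The Csf1, Cxcl5 and Lif messages were higher in the 4 libraries of suffix _290419 than in the 8 of suffix _120519, by 1.45-fold, 1.76-fold and 1.30-fold. This comparison kept the group in the model and asked whether the members differed between the 2 sets of libraries. With edgeR's quasi-likelihood test and Benjamini-Hochberg adjustment over 13608 genes, 3 of the 8 tested members were called, all higher in suffix _290419. Over all genes, 45.6% were called in this comparison and 22.2% were called higher. Thus 3 of 8 is a smaller share than that of all genes called and a larger one than that of all genes called higher. These shares were not tested against each other. By group, 1 of the 5 tested NF-kB-driven genes (Cxcl5) and 2 of the 3 homeostatic factors (Csf1 and Lif) were called. The median log2 difference was 0.14 over the tested NF-kB-driven genes, 0.37 over the homeostatic factors and 0.01 over all genes tested.

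Csf1 (ENSMUSG00000014599, chromosome 3, 107741048 to 107760469, minus strand, GRCm38) lay at 202 to 235 CPM in suffix _120519, with a median of 217, and at 317, 336, 321 and 293 CPM in suffix _290419 (NLS-N-VEGF, NLS-N-VEGF dox, N-VEGF, N-VEGF dox). These ranges did not overlap, as in 13.1% of all genes tested in this direction, and Csf1 was the only member of the 8 for which that held. The log2 difference was 0.54 (SE 0.05, 95% interval 0.43 to 0.65, edgeR adjusted p = 1.37e-06), and it was above 0 in 4 of 4 groups. Its receptor Csf1r, itself a macrophage gene, was lower in suffix _290419, at 5.68 against 7.79 CPM (log2 difference -0.43, SE 0.13, edgeR adjusted p = 0.0144).

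Cxcl5 (ENSMUSG00000029371, chromosome 5, 90759360 to 90761624) lay at 27.99, 30.8, 33.7 and 33.4 CPM in suffix _290419, in the same order of groups, a narrow range across dox and insert. In suffix _120519 the NLS-N-VEGF libraries were as high and the other groups lower, with values of 28.4 and 27.4 CPM in NLS-N-VEGF, 17.8 and 17.1 in NLS-N-VEGF dox, 11.1 and 15.3 in N-VEGF, and 13.9 and 18.1 in N-VEGF dox. Thus the libraries of NLS-N-VEGF without dox were high under both suffixes, and the other 3 groups were high under suffix _290419 alone. The log2 difference between suffixes was 0.81 over all groups (SE 0.15, 95% interval 0.51 to 1.12, edgeR adjusted p = 0.000298). Group by group, as a difference of log2(CPM + 2), it was 0.01 in NLS-N-VEGF, 0.75 in NLS-N-VEGF dox, 1.24 in N-VEGF and 0.98 in N-VEGF dox. The test of the suffix difference between the insert populations gave -0.78 (log2, NLS-N-VEGF minus N-VEGF, SE 0.23, unadjusted p = 0.00399) and did not pass adjustment over all genes (edgeR adjusted p = 0.521, 0% of genes called). With no filter on low counts the adjusted p of that difference was 0.000617, and over the other alternatives it lay between 0.133 and 0.894.

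Lif (ENSMUSG00000034394, chromosome 11, 4257557 to 4272514) lay at 17.3, 13.1, 16.8 and 12.5 CPM in suffix _290419 and at 10.1 to 14.4 CPM in suffix _120519, with a median of 11.1. The ranges overlapped through the dox libraries: those without dox were the highest of all 12, and those with dox were within the range of suffix _120519. The log2 difference was 0.37 (SE 0.10, 95% interval 0.17 to 0.58, edgeR adjusted p = 0.00512). It stayed past the threshold in all 18 alternatives, with the highest adjusted p, 0.0489, when the N-VEGF library of suffix _290419 was left out. The dox difference of Lif was lower in suffix _290419 than in _120519 by a log2 value of -0.45 (SE 0.16, unadjusted p = 0.0140), which did not pass adjustment (edgeR adjusted p = 0.728, 0% of genes called).

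The other 5 members showed no called suffix difference, and among them the monocyte chemokine Ccl7 and Cxcl12 were nearest to the threshold on the lower side. Ccl7 (ENSMUSG00000035373, chromosome 11, 82045712 to 82047525) lay at 16.6, 15.5, 18.7 and 12.7 CPM in suffix _290419, below the median of 21.3 CPM in suffix _120519 (14.1 to 24.3 CPM). Its log2 difference was -0.32 (SE 0.13, edgeR adjusted p = 0.0554). A fit that took the replicate label as a block, in which 45.8% of all genes were called, gave -0.32 (SE 0.12, edgeR adjusted p = 0.0465). Leaving out the N-VEGF library 1 of suffix _120519, which had the lowest Ccl7 of its set, gave -0.40 (adjusted p = 0.00186), and leaving out the N-VEGF library of suffix _290419 gave -0.48 (adjusted p = 0.00953). The call was also made without NLS-N-VEGF dox library 1 of suffix _120519 (adjusted p = 0.0470) and without that of suffix _290419 (adjusted p = 0.0419), by DESeq2 (adjusted p = 0.0411), with no filter on low counts (adjusted p = 0.000441) and in the libraries numbered 2 alone (adjusted p = 0.00477), which makes 8 of 18 alternatives.

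Cxcl12 was lower in suffix _290419 in 4 of 4 groups, with a log2 difference of -0.25 (SE 0.11, edgeR adjusted p = 0.0702). It passed the threshold without NLS-N-VEGF dox library 2 of suffix _120519 (adjusted p = 0.0256), without N-VEGF library 1 of suffix _120519 (adjusted p = 0.0288), and with no filter on low counts (adjusted p = 0.0488). Ccl2, the close neighbour of Ccl7, had a log2 difference of 0.07 (SE 0.12, 95% interval -0.20 to 0.33, edgeR adjusted p = 0.677). Cxcl1 had 0.37 (SE 0.23, 95% interval -0.11 to 0.85, edgeR adjusted p = 0.196), and 0.71 with an adjusted p of 0.0114 when the NLS-N-VEGF library of suffix _290419, the lowest of its set at 2.71 CPM, was left out. Il6 had 0.14 (SE 0.40), with an interval of -0.71 to 0.99 that leaves room for sizeable differences in either direction at this depth.

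**Figure D3:**
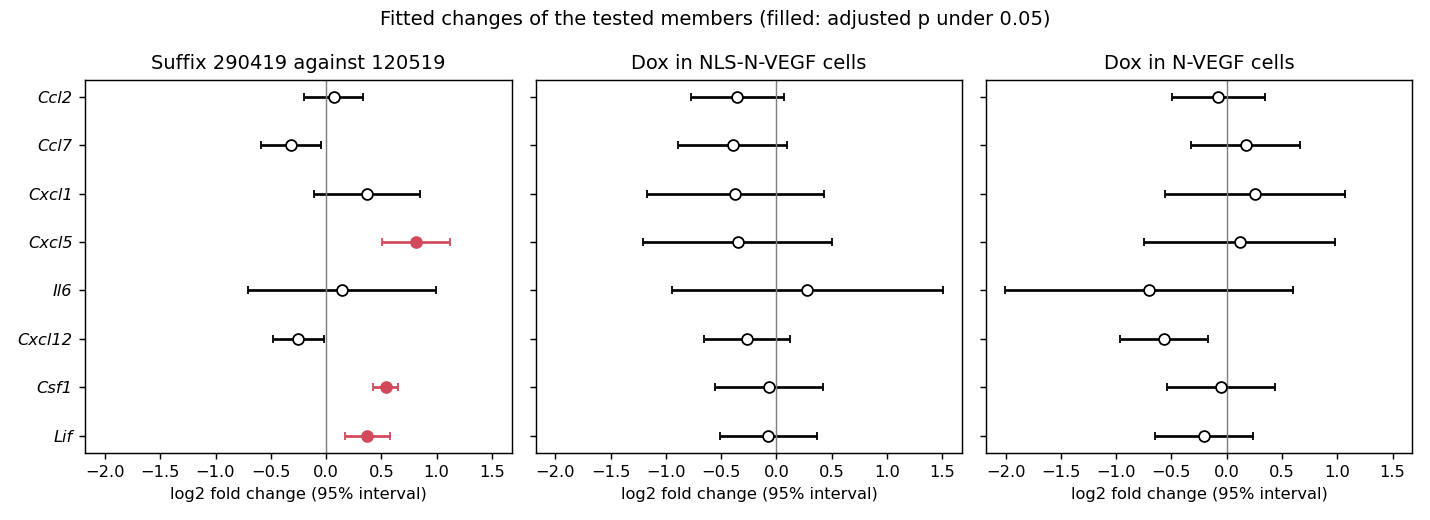
Log2 fold change with its 95% interval for the 8 tested members between suffixes and with dox in each insert population, filled where the edgeR adjusted p was under 0.05. Csf1, Cxcl5 and Lif are filled in the suffix panel, with values of 0.54, 0.81 and 0.37, and no member is filled in either dox panel.

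No member was called with dox, in cells with either insert. In this comparison of libraries with and without dox, in which the induced protein and doxycycline itself cannot be told apart, edgeR called 0 of the 8 tested members with dox in NLS-N-VEGF cells (0.022% of all genes called) and 0 of 8 in N-VEGF cells (0.0367%). With the replicate label as a block these shares of all genes were 0.125% and 0.11%, and the members called were still 0. At an unadjusted p under 0.05 the members numbered 0 in NLS-N-VEGF cells and 1 in N-VEGF cells (2.34% and 1.48% of all genes), and DESeq2 called 0 in both. Under the block they numbered 3 (Ccl2, Ccl7 and Cxcl5, all lower with dox) and 1 (7.27% and 5.4% of all genes). Within suffix _120519 alone, with 2 libraries per group, they numbered 5 and 2 (11.4% and 10.8%), and 0 members were called after adjustment. In NLS-N-VEGF cells 4 of the 5 tested NF-kB-driven genes had a fitted log2 difference below 0, with a median of -0.35, where the median of all genes was 0.00. In N-VEGF cells 2 of the 5 were below 0, with a median of 0.12. The 3 homeostatic factors were all below 0 in both populations, with medians of -0.07 in NLS-N-VEGF and -0.21 in N-VEGF cells. Over the 9 other chemokines tested the medians were -0.31 and -0.08, and over 17 other NF-kB target genes -0.03 and -0.05.

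Ccl2 (ENSMUSG00000035385, chromosome 11, 82035571 to 82037453) was at 73.4, 72.8 and 75.5 CPM in NLS-N-VEGF cells (libraries 1 and 2 of suffix _120519 and 2 of _290419, the order used throughout) and 54.8, 56.0 and 62.6 CPM in NLS-N-VEGF dox. These groups did not overlap, as in 4.48% of all genes tested in this direction, and Ccl2 was 1 of the 8 members for which that held. The log2 difference was -0.35 (SE 0.19, 95% interval -0.77 to 0.07, edgeR unadjusted p = 0.0917, adjusted p = 0.9998). The N-VEGF libraries were at 38.7, 59.7 and 70.1 CPM when untreated and at 63.8, 55.3 and 40.9 CPM under dox, an overlapping pair of groups whose library 1 and last library moved in opposite directions (log2 difference -0.08, SE 0.19). The wide spread of the N-VEGF libraries, an SD of 16.0 CPM against 1.40 CPM in NLS-N-VEGF, was a feature of both dox states, since N-VEGF dox had an SD of 11.6 CPM.

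Ccl7 was at 22.2, 24.3 and 16.6 CPM in NLS-N-VEGF cells and 15.4, 17.1 and 15.5 CPM with dox, lower in 3 of 3 same-labelled pairs (log2 difference -0.40, SE 0.23, 95% interval -0.89 to 0.10, edgeR unadjusted p = 0.105). The N-VEGF libraries were at 14.1, 20.4 and 18.7 CPM before dox and 23.9, 23.2 and 12.7 CPM under it, higher in 2 of 3 pairs (log2 difference 0.17, SE 0.23). The dox differences of the populations, compared directly, differed by -0.57 (log2, NLS-N-VEGF minus N-VEGF, SE 0.32, edgeR unadjusted p = 0.101, 0% of all genes called).

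Cxcl1 (ENSMUSG00000029380, chromosome 5, 90891241 to 90893115) was at 4.95, 4.15 and 2.71 CPM in NLS-N-VEGF, 2.41, 2.28 and 4.44 in NLS-N-VEGF dox, 1.63, 2.46 and 4.02 in N-VEGF, and 2.31, 3.74 and 3.68 in N-VEGF dox. In NLS-N-VEGF cells its 2 libraries of suffix _120519 were lower with dox and that of suffix _290419 was higher, and the groups overlapped (log2 difference -0.37, SE 0.37). For Cxcl5 the same contrast gave -0.35 with NLS-N-VEGF (SE 0.39) and 0.12 with N-VEGF (SE 0.40), with lower values in both libraries of suffix _120519 and a higher value in that of _290419 in NLS-N-VEGF cells. Within suffix _120519 alone, the dox difference in NLS-N-VEGF cells was -0.96 for Cxcl1 and -0.68 for Cxcl5 (edgeR adjusted p = 0.173 and 0.0744).

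Cxcl12 (ENSMUSG00000061353, chromosome 6, 117168535 to 117181367) was highest in NLS-N-VEGF and lowest in N-VEGF dox under every library label. It had 11.8, 9.74 and 8.64 CPM in NLS-N-VEGF, 9.75, 7.36 and 7.99 in NLS-N-VEGF dox, 7.79, 9.06 and 7.52 in N-VEGF and 6.44, 5.64 and 4.35 in N-VEGF dox. It was lower with dox in 6 of 6 same-labelled pairs, as were 2.96% of all genes tested, and of the 8 members it alone was. The groups of N-VEGF cells did not overlap, as in 1.79% of all genes in this direction. Its log2 dox difference came to -0.26 with NLS-N-VEGF (SE 0.18), -0.57 with N-VEGF (SE 0.18, edgeR unadjusted p = 0.00941) and -0.41 as the mean of both (SE 0.13, unadjusted p = 0.00698, 0.0588% of all genes called). None of these passed adjustment over all genes in the edgeR fit. The difference between the dox effects was 0.30 (SE 0.26, 95% interval -0.25 to 0.86).

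For the growth factors Csf1 and Lif the 95% intervals of the dox differences included 0. Csf1 had 235, 233 and 317 CPM in NLS-N-VEGF, 202, 214 and 336 in NLS-N-VEGF dox, 224, 207 and 321 in N-VEGF and 220.0, 212 and 293 in N-VEGF dox, so that the library of suffix _290419 was the highest in every group. Its log2 difference with dox was -0.06 (95% interval -0.55 to 0.42) in NLS-N-VEGF cells and -0.05 (95% interval -0.54 to 0.44) in N-VEGF cells. Lif had 12.7, 11.5 and 17.3 CPM in NLS-N-VEGF, 11.8, 14.4 and 13.1 in NLS-N-VEGF dox, 10.8, 10.5 and 16.8 in N-VEGF and 10.1, 10.5 and 12.5 in N-VEGF dox. Its log2 difference with dox was -0.07 (95% interval -0.51 to 0.37) and -0.21 (95% interval -0.65 to 0.24). Under the block it was -0.06 (SE 0.13) and -0.19 (SE 0.14).

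The 3 lowest genes gave few counts in any condition. Il6 (ENSMUSG00000025746, chromosome 5, 30013114 to 30019981) had 8, 12 and 4 counts in NLS-N-VEGF, 16, 3 and 12 in NLS-N-VEGF dox, 3, 11 and 14 in N-VEGF and 5, 7 and 5 in N-VEGF dox, and these groups overlapped. Cxcl10 (ENSMUSG00000034855, chromosome 5, 92346638 to 92348889, minus strand) had 4, 4 and 2 counts, then 6, 1 and 8, 4, 4 and 7, and 3, 5 and 7 in the same order of groups. The gene Art3 overlaps 5.91% of its exon bases on the other strand, and the strand setting of the counting is not given in the sources used here. Ccl5 (ENSMUSG00000035042, chromosome 11, 83525778 to 83530518, minus strand) had 2, 4 and 2 counts, then 0, 2 and 2, 0, 0 and 1, and 3, 4 and 3. Neither Ccl5 nor Cxcl10 was tested. The counts of Ccl5 in N-VEGF and N-VEGF dox did not overlap, as in 2.13% of all genes tested in this direction, and lay near or under the floor of 3 counts. Of the cytokines that switch on NF-kB in fibroblasts, Tnf, Il1a and Il1b were likewise near 0. They had at most 3 counts of Tnf and at most 1 of Il1a and of Il1b in any library. Another cytokine, Il33, had a mean of 13.8 CPM.

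Between the insert populations, Cxcl12 and Lif were higher with the nuclear localization sequence than without it in 6 of 6 same-labelled pairs, as were 1.55% of all genes tested, and the third homeostatic factor, Csf1, in 4 of 6. The fitted log2 difference of Lif was 0.25 (SE 0.20) with dox and 0.12 (SE 0.20) without. Its pairs in suffix _290419 differed by only 0.03 without dox and 0.05 with dox, in log2(CPM + 2). With dox, the log2 difference of Cxcl12 was 0.61 (SE 0.18, 95% interval 0.21 to 1.01, edgeR unadjusted p = 0.00584), and without dox it was 0.31 (SE 0.18). Neither passed adjustment, and edgeR called 0 of 8 members and 0% of all genes in either comparison, with 1 member with dox and 0 without at an unadjusted p under 0.05 (1.18% and 0.603% of all genes). With the replicate label as a block these were 1 and 3 members (4.56% and 3.67% of all genes). The 3 without dox were higher in NLS-N-VEGF under the block, Cxcl5 with a log2 difference of 0.61 (SE 0.20, edgeR adjusted p = 0.9387), Ccl2 with 0.40 and Cxcl12 with 0.30. Within suffix _120519 alone they were 3 and 4 members (6.81% and 10.9% of all genes). Without dox Ccl2 was at 73.9 ± 1.40 CPM in NLS-N-VEGF and 56.2 ± 16.0 CPM in N-VEGF (SD, n = 3), groups that did not overlap, as in 1.76% of all genes in this direction (log2 difference 0.39, SE 0.19, edgeR unadjusted p = 0.0634). With dox the populations also differed in the level of the insert. The groups compared share libraries with the dox comparisons, so these values are not independent of those above.

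**Figure D4:**
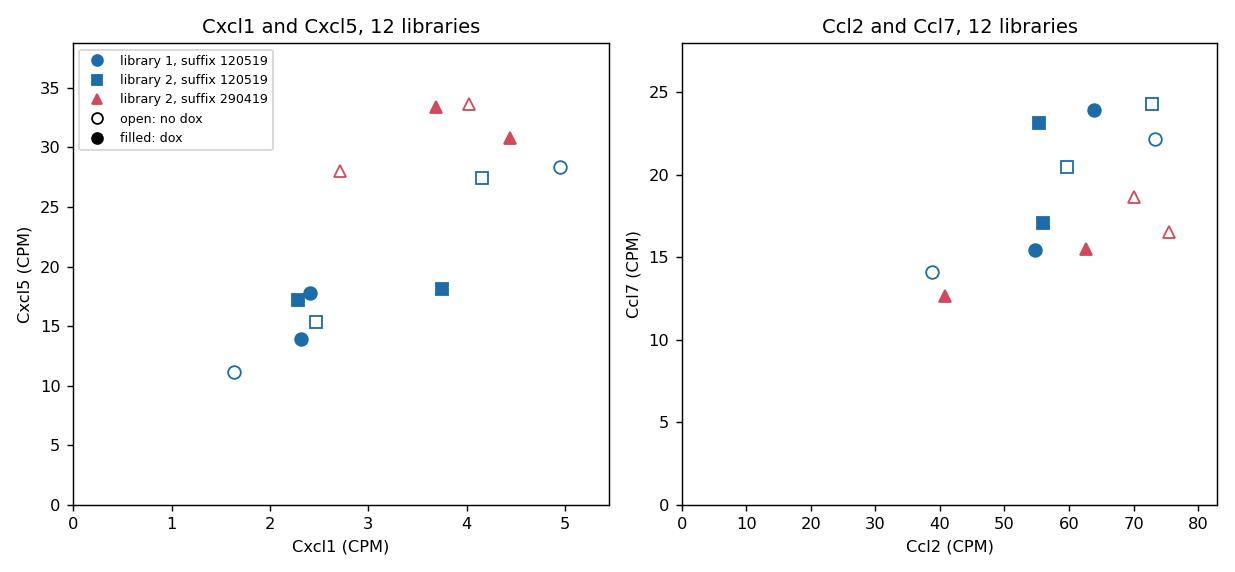
CPM of Cxcl5 against Cxcl1 and of Ccl7 against Ccl2 in the 12 libraries, with red triangles for suffix _290419, blue symbols for suffix _120519, and filled symbols for dox. Within suffix _120519 both pairs run together, and 3 of the 4 triangles have a higher ratio of Cxcl5 to Cxcl1 than every blue point in the first panel, and the triangles overlap the blue points at lower Ccl7 in the second.

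For 2 pairs of members that lie near each other in the genome, the levels were compared library by library. Cxcl1 and Cxcl5 are 129.62 kb apart on chromosome 5, and over 12 libraries, centred on the mean of their suffix, their log2(CPM + 2) values had a Pearson correlation of 0.89 (0.92 within the 8 libraries of suffix _120519). Ccl2 and Ccl7 are 8.26 kb apart on chromosome 11, and their correlation was 0.80 (0.80 within suffix _120519). These describe libraries that share a group and a depth, and of the other 19 pairs among the 7 members above a mean of 1 CPM the highest was Ccl2 with Cxcl12 at 0.64. Within suffix _120519 alone, Ccl2 with Cxcl5 and Ccl2 with Cxcl1, on different chromosomes, had 0.82 and 0.78, as high as the neighbours Ccl2 and Ccl7. The ratio of Cxcl5 to Cxcl1 was 4.84 to 7.52 in suffix _120519 and 6.93 to 10.3 in suffix _290419, and the ratio of Ccl2 to Ccl7 was 2.39 to 3.55 and 3.23 to 4.56. These ranges overlapped and the ratios were not tested. In NLS-N-VEGF dox the ratio of Cxcl5 to Cxcl1 was lower in suffix _290419, at 6.93 against 7.38 and 7.52.

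Outside the member list, the genes most like each of 3 members were taken by the same correlation over 12 libraries and 12051 genes. For Ccl2 these were Ift80 (0.96), Fgd4 (0.95) and Ice1 (0.94). For Cxcl12 they were Tnc (0.93), Adamts7 (0.91) and Fgfbp3 (0.90), of which Tnc encodes the matrix protein tenascin-C. For Il6, at its low counts, they were Sgpp1 (0.88), Gm42611 (0.84) and B130046B21Rik (0.82). As the highest values over so many genes, these describe the 12 libraries only.

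**Figure D5:**
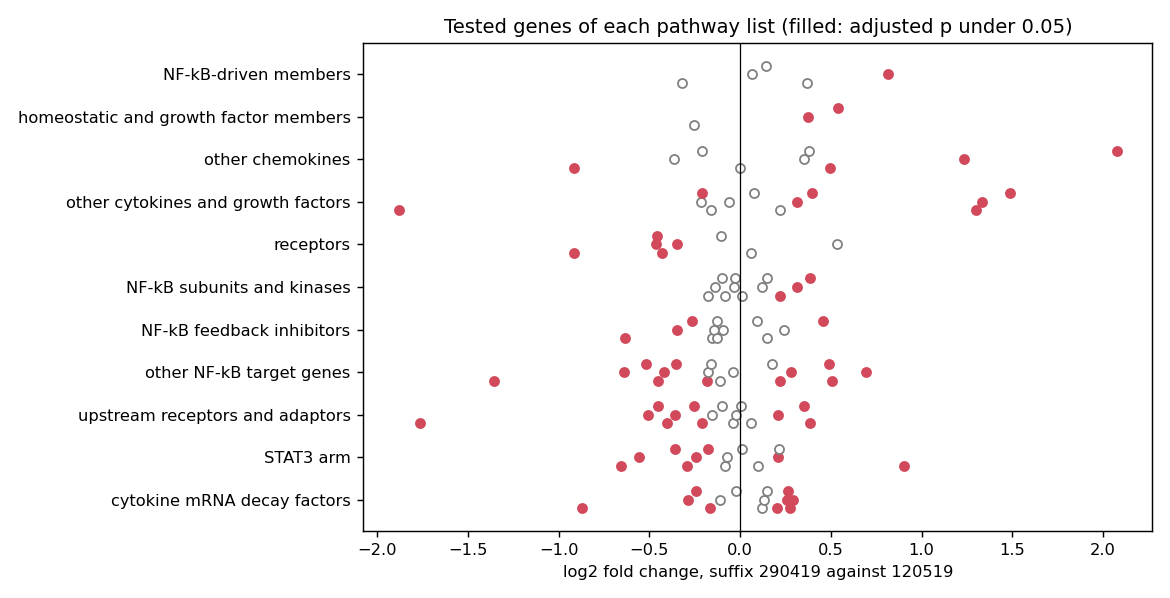
Log2 fold change of suffix _290419 against _120519 for each tested gene of the member groups and of 9 pathway lists, filled where the edgeR adjusted p was under 0.05. Filled receptors all lie to the left, from -0.92 to -0.35, and the filled chemokines and cytokines lie on both sides.

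The other secreted factors of these fibroblasts also differed between suffixes, and in both directions. Of 29 other chemokines 9 were tested, and 3 were higher and 1 lower in suffix _290419: Ppbp, a Cxcr2 ligand known from platelets, by a log2 difference of 2.08 (means of 0.867 CPM in suffix _120519 and 3.68 in _290419), Ccl9 by 1.23 (2.67 and 6.26 CPM), Ccl25 by 0.50, and Cx3cl1, a membrane-bound chemokine, by -0.92. Of 20 other cytokines 12 were tested, and 5 were higher and 2 lower. The higher ones included Clcf1, a ligand of the gp130 family, by 1.33 (90.8 and 229 CPM), and Tslp by 1.49. The lower ones were Il33, a nuclear alarmin, by -1.88 (18.2 and 4.97 CPM), and Mif by -0.21. The share called was 44.4% of the tested chemokines, with a median log2 difference of 0.35, and 58.3% of the tested cytokines, with a median of 0.15, beside 45.6% and 0.01 for all genes.

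Of 18 receptors of these and related factors 8 were tested, and 0 were called higher and 5 lower in suffix _290419 (62.5% called, beside 45.6% of all genes), with a median log2 difference of -0.39. Lifr, the receptor of Lif, was at 58.4 ± 3.98 CPM in suffix _120519 (SD, n = 8) and 31.1 ± 4.99 CPM in _290419 (SD, n = 4), a log2 difference of -0.92 (SE 0.08, edgeR adjusted p = 2.87e-07). The shared subunit Il6st and the oncostatin receptor Osmr were lower by -0.46 each. Thus the mean Lif message was higher, and those of Lifr and Il6st, which together form its receptor, were lower in suffix _290419. For Lif this held clearly in the libraries without dox only. Those with dox, at 13.1 and 12.5 CPM, lay within the range of suffix _120519. Among chemokine receptors, Cxcr2, the receptor of Cxcl1 and Cxcl5, was at 0.692 CPM with a log2 difference of 0.53 (SE 0.27, edgeR adjusted p = 0.119), the Cxcl12 scavenger Ackr3 was expressed at 74.9 CPM and had a log2 difference of 0.06 (SE 0.05), Cxcr4 and Cxcr3 had 0 counts in all 12 libraries, and Ccr2, the receptor of Ccl2 and Ccl7, was at 0.104 CPM.

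Among genes of the NF-kB signal, 25% of the subunits and kinases and 33.3% of the listed feedback inhibitors were called between suffixes. Both shares are below the 45.6% of all genes called, and the medians were -0.01 and -0.13. Of 12 subunits and kinases 3 were higher and 0 lower, with small values: Tbk1 by 0.38, Map3k14 by 0.31 and Nfkb2 by 0.22. The subunits Rela and Nfkb1 had 0.15 (edgeR adjusted p = 0.0657) and -0.10 (adjusted p = 0.101). Of 12 genes listed as feedback inhibitors, 1 was higher (Tnip2, by 0.46) and 3 were lower (Bcl3 by -0.64, Otud7b by -0.35 and Tnip1 by -0.26). Whether each of these restrains NF-kB in these cells was not tested. The classical inhibitor Nfkbia had -0.13 (adjusted p = 0.219).

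Further NF-kB target genes were called in both directions, 70.6% of those tested beside 45.6% of all genes, with a median of -0.16. Of 17 tested, 5 were higher, led by Ereg (0.70), Plau (0.51) and Ptgs2 (0.49), and 7 were lower, led by the complement gene C3 (-1.36), Mmp9 (-0.64) and Cebpd (-0.52). Of 16 upstream receptors and adaptors 3 were higher (Irak1, Irak2 and Il17ra, by 0.38, 0.35 and 0.21) and 7 lower, with Tlr2 by -1.77 (26.8 and 7.70 CPM), Ticam1 by -0.51 and Tnfrsf1b by -0.45. In the STAT3 arm, which Il6 and Lif use, 2 of 13 were higher and 6 lower, with Socs3, a feedback inhibitor, by -0.66 and Stat3 by -0.56. Of 14 factors that bind and stabilize or degrade cytokine messages 5 were higher and 4 lower, led by Zfp36l1 at -0.87. The medians of these 3 lists were -0.13, -0.09 and 0.12, with 62.5%, 61.5% and 64.3% called, beside 45.6% of all genes.

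No gene of these 9 lists was called with dox in either population, nor in any comparison of the insert populations, in the edgeR fit. Fibroblast markers themselves differed between suffixes, with 77.8% called beside 45.6% of all genes. Of the 9 markers 3 were higher (Thy1 by 0.53, S100a4 by 0.40 and Vim by 0.38) and 4 lower (Pdgfra by -1.32, Col3a1 by -1.22 and Fn1 by -0.55 among them). The part of these differences in the values of Csf1, Cxcl5 and Lif was not tested.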

How the data were processed

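RNA was sequenced as single reads from TruSeq libraries. Per the labels and the submitters' processing notes, the authors checked reads with FastQC 0.11.5, trimmed them with Trim Galore (cutadapt 1.10), aligned them with TopHat2 2.1.0 and Bowtie2 2.2.6 to GRCm38 and counted them per gene with HTSeq 0.6.1. The counts were deposited raw, without scaling, and each of the 12 columns matched 1 library by its label.

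Counts were tested with edgeR 4.0.16 in R 4.3.3: filterByExpr by group, TMM scaling, 1 mean per group over all 12 libraries, two-sided quasi-likelihood F tests, and Benjamini-Hochberg adjustment within each comparison with a threshold of 0.05. The suffix was tested with the group in the model. Adjusted p-values are from edgeR unless DESeq2 1.42.0 is named. SE and 95% intervals were derived from the F statistic. The fits were tested on simulated counts with known changes.

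The 10 members, their 2 groups, the 9 pathway lists and the markers were chosen with earlier results of these data known. All members were named, and of each list at most 3 genes each way, those called with the largest log2 difference and a mean of at least 1 CPM. A gene that this rule would name is not reported here. Other genes of the lists (Rela, Nfkb1, Nfkbia, Csf1r, Ackr3, Cxcr2, Cxcr4, Cxcr3, Ccr2, Tnf, Il1a, Il1b and single markers) were named for their role. For likeness, log2(CPM + 2) was centred on the suffix mean.

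Libraries with the same number and suffix deviated together from their group means, with correlations of 0.4 to 0.83 in all 18 such pairs over 12058 genes, so that number plus suffix served as replicate block. Pairs with different labels had a mean of -0.247 but reached 0.678, and 12 of 36 were above 0.1. On average, 9 of the 12 libraries correlated most with their own label. Whether the number pairs libraries apart from the suffix was not tested. No libraries of a group agreed within sampling noise. The alternatives were DESeq2, RLE scaling, other filters on low counts, the block, the suffix as covariate, suffix _120519 alone, library number 2 alone, and each library left out.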

Additional observations from a re-analysis of the deposited data

Results flagged for a closer look

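Ccl5 stood out because dox libraries were lower in all 3 same-labelled pairs of the NLS-N-VEGF population and higher in all 3 of the N-VEGF population in CPM. In the NLS-N-VEGF pair of suffix _290419 both libraries had 2 counts, so that this pair differed by library size alone. The mean dox changes in log2(CPM + 2) differed by -0.18 (NLS-N-VEGF minus N-VEGF). The difference was not tested, the gene failed the filter on low counts, and 8 of its 12 libraries had 2 counts or fewer.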

How the results depend on the processing

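Of 32 reported member values, recomputed 593 times over 20 settings, 558 kept their direction and side of the threshold, 0 lost a call, 13 gained one and 22 changed sign, none of these past the threshold in either fit. Members called between suffixes numbered 3, 5 with no filter on low counts, and 3 to 5 over the libraries left out. The suffix difference between populations called 0 members and 1 (Cxcl5) with no filter on low counts, and no other comparison called a member under any setting. The replicate block called Ccl7 between suffixes and changed no other member's call. All genes called with dox in NLS-N-VEGF cells numbered 3, against 12 by DESeq2, 53 with no filter, 17 with the block, 15 with the suffix as covariate, 109 in suffix _120519 alone and 0 to 3 over the libraries left out. In N-VEGF cells they numbered 5, against 1 to 36 over all settings, and as the mean of both 8, against 5 to 135, with 77 under the block. Between suffixes they numbered 6207, against 4929 to 7200, and in the 5 other comparisons 0, against at most 4 (difference of dox effects), 11 and 10 (populations with and without dox), 20 (dox by suffix) and 81 (population by suffix). The causes of these moves were not tested.

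The values that changed sign were as follows. With dox in NLS-N-VEGF cells, suffix _120519 alone gave -0.059 for Il6 and 0.10 for Lif, and over the libraries left out Il6 ranged from -0.071 to 0.68, Csf1 from -0.33 to 0.091 and Lif from -0.19 to 0.11. With dox in N-VEGF cells, suffix _120519 alone gave 0.26 for Ccl2, and over the libraries left out Ccl2 ranged from -0.28 to 0.10, Cxcl5 from -0.32 to 0.69, Csf1 from -0.22 to 0.14 and Lif from -0.33 to 0.031. Between suffixes Ccl2 ranged from -0.093 to 0.24 and Il6 from -0.18 to 0.43. With the longest transcript as length, the order of the other 8 levels held. Depth limits Il6, Ccl5 and Cxcl10, whose counts lie near the floor of 3.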
